A study of Macaca mulatta with 4 samples.

Results

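Chromosome 14 of the rhesus macaque (Macaca mulatta) is the counterpart of human chromosome 11. Its open chromatin was described here from DNase-seq hotspots of AG and GG morulae, read here as embryos with only paternal or only maternal nuclear genomes. All hotspots that the deposited lists place on this chromosome were taken, with no other choice, and came to 3445 in AG replicate 1, 3918 in AG replicate 2, 4150 in GG replicate 1 and 3921 in GG replicate 2. These are 15434 of 328084 hotspots (4.70%). Joined where they overlapped or touched, they formed 10288 merged regions of the 222970 of the whole genome (4.61%).

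A morula is the compact ball of cells before the blastocyst. The labels do not spell out AG and GG, which are taken to mean androgenetic (nuclear chromosomes from sperm) and gynogenetic (from the oocyte). Each kind gave 2 libraries, labelled by genotype (AG or GG) and tissue (morula), and both kinds were digested with DNase I at 40 U/ml for 5 min at 37 °C. The labels give no number of embryos per library, no donors and no ploidy, and do not say that replicates are separate embryos or cultures, so p-values reflect nothing more than the spread among these 4 libraries, possibly technical. Donors and the making of the embryos may differ between the groups and cannot be told apart from parental origin.

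DNase I cuts DNA most readily where nucleosomes are loosened or displaced, as at active promoters and enhancers, and a hotspot is a stretch with more cuts than its surroundings. Genomic imprinting, the subject of the study, is the parent-specific silencing of genes by marks set in the germ line. The human counterpart of chromosome 14 carries one of the best-known imprinted clusters. It includes the growth factor gene IGF2, normally active on the paternal copy, and the maternally active H19 and CDKN1C, a non-coding RNA and a cell-cycle inhibitor. As a check of the chromosome's identity, 17 of 19 listed imprinted genes of that counterpart had an entry in RefSeq's table of the T2T-MMU8v2.0 assembly, and all 17 were on chromosome 14. That assembly is not the rheMac8 build of the hotspots, so no hotspot was assigned to a gene. Positions below are rheMac8, counted from 1.

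The first comparison was the amount of open chromatin. GG libraries had more hotspots on chromosome 14 and more of its length within them than AG libraries. Hotspots covered 3.63 Mb in AG replicate 1, 3.89 Mb in AG replicate 2, 4.74 Mb in GG replicate 1 and 4.48 Mb in GG replicate 2. Both GG values thus lay above both AG values, with an AG mean of 3.76 ± 0.180 Mb and a GG mean of 4.61 ± 0.184 Mb (SD over 2 libraries), 1.23 times the AG mean. The number of hotspots was 3682 ± 334 in AG and 4036 ± 162 in GG, but the lowest GG library exceeded the highest AG library by 3 hotspots. For both measures p was 0.333 (two-sided exact permutation), and no smaller p is possible with 2 libraries a group.

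By number of hotspots, the whole GG lists were not all longer than the AG lists, with 64730 and 85318 in AG and 93171 and 84865 in GG. In covered length, both whole GG lists were longer than both AG lists. How deeply each library was sequenced cannot be read from the lists. Each list was then cut to its highest scores so that all held as many hotspots as AG replicate 1's. The covered length then differed by -0.484 Mb (AG minus GG) in place of -0.851 Mb. The mean number of hotspots turned, with 3193 in AG and 2995 in GG. This rested on AG replicate 1, left whole at 3445 hotspots, while AG replicate 2 lay below the GG mean.

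As a share of its own library, chromosome 14 took 5.35% of the covered bp in AG replicate 1, 4.61% in AG replicate 2, 4.64% in GG replicate 1 and 4.81% in GG replicate 2. AG replicate 1 stood apart, and the other 3 libraries lay close together. AG exceeded GG by 0.257 percentage points on average (two-sided exact permutation p = 1) and turned to -0.115 without AG replicate 1. In the higher-scoring 50% of each list it was 0.0214. Chromosome 14 had 1.12 times the hotspots per Mb of the other autosomes in AG replicate 1 and 0.959, 0.929 and 0.966 times in AG replicate 2 and GG replicates 1 and 2.

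Hotspots were far from even along the chromosome, and the profile was alike in all 4 libraries. The densest stretch was the first 20 Mb. In sections of 10 Mb, hotspots covered 53.1 kb per Mb of the first section in AG replicate 1, 62.0 in AG replicate 2, and 62.6 and 59.4 kb per Mb in the GG libraries. In the second they covered 55.1, 57.6, 72.5 and 69.8 kb per Mb in the same order. Coverage then fell to 12.7, 17.7, 18.1 and 22.7 kb per Mb in the third section. Lower peaks followed in the section from 60000001, with 37.8 to 49.5 kb per Mb, and in that from 110000001, with 37.2 to 56.9 kb per Mb. Between them, the sections from 80000001 and from 90000001 were the emptiest besides the third, with 14.6 to 20.0 and 15.3 to 18.0 kb per Mb.

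**Figure D1:**
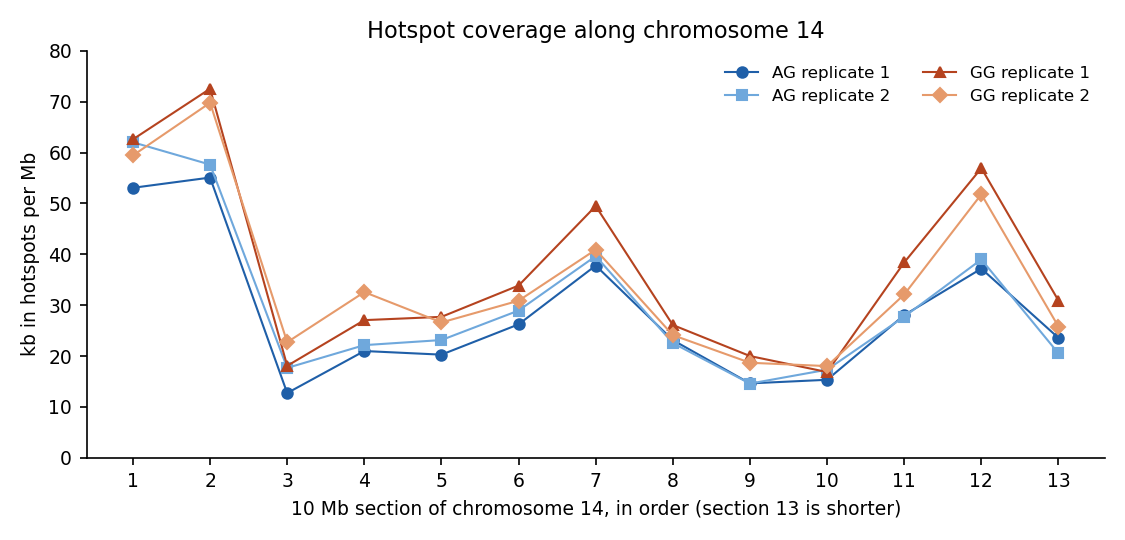
Covered length of hotspots, in kb per Mb, in 13 consecutive sections of chromosome 14, with 1 line per library. All libraries are highest in sections 1 and 2 and have lower peaks in sections 7 and 12; both GG libraries lie well above both AG libraries in sections 2 and 12.

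The ends of the chromosome differed from each other. The first 1 Mb held 72.0 and 100.03 kb of hotspots in AG against 83.8 and 84.3 kb in GG, 2.26 to 3.29 times the chromosome's own mean. The last 1 Mb before the final hotspot, which ended at 127891481, held 29.1, 23.7, 28.1 and 24.6 kb, or 0.703 to 1.03 times the mean. Only the first end was thus rich in hotspots in every library.

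Single windows of 1 Mb ranged widely. The most covered ran from 11000001 to 12000000, with 87.2 and 93.7 kb in AG and 125 and 131 kb in GG. It was followed by 111000001 to 112000000 (84.7 and 84.4 kb against 137 and 120 kb) and 8000001 to 9000000 (94.0 and 100.2 kb against 112 and 110 kb). The least covered, 36000001 to 37000000, had 1.46 and 4.33 kb in AG and 0.509 and 4.21 kb in GG. Next came the windows from 40000001, with 1.67 and 3.42 kb in AG and 1.95 and 4.45 kb in GG, and from 83000001, with 3.096 and 3.46 kb against 3.06 and 6.53 kb. The first of these 3 windows holds the longest stretch without a hotspot in any list, 347 kb from 36116834 to 36464031. The next longest ran from 92977129 to 93228067 (251 kb) and from 73662562 to 73907280 (245 kb). Every one of the 128 windows had a hotspot in at least 1 library.

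As shares of the chromosome's own covered bp, which set aside how much each list holds, the groups did not overlap in 7 of 13 sections (53.8%), against 61.5% of such sections over all autosomes. Separation of the groups was thus no more common here. The largest differences lay in the first section, with 14.6 and 15.96% in AG against 13.2 and 13.3% in GG, and in the section from 110000001, with 10.2 and 10.03% in AG against 12.01 and 11.6% in GG. Both AG libraries were also above both GG libraries in the sections from 50000001, 70000001 and 90000001, and below them in those from 10000001 and 80000001. Sections were not tested.

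The width of hotspots was compared next. The typical hotspot was alike in the groups, with medians of 923 and 890 bp in AG and 919 and 935 bp in GG (two-sided exact permutation p = 0.667). In lists of equal number the medians averaged 946 bp in AG and 1041 bp in GG. That cut left AG replicate 1 whole and kept the higher-scoring, wider hotspots of the other lists. The wide tail was longer in GG. Hotspots over 2 kb made up 8.24% of chromosome 14 hotspots in AG replicate 1, 6.87% in AG replicate 2, and 12.2% in each GG library. They held 21.4 and 18.5% of the chromosome's covered bp in AG against 31.1 and 30.9% in GG. Over 4 kb there were 22 and 22 hotspots in AG and 72 and 53 in GG, and over 6 kb 4 and 2 against 11 and 11.

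The share over 2 kb averaged 7.55 ± 0.974% over the AG and 12.2 ± 0.0176% over the GG libraries (SD, n = 2 in both; two-sided exact permutation p = 0.333, the smallest possible). The difference, -4.67 percentage points, was larger in lists cut to equal number (-7.78), to equal covered length (-12.3) or to the better-scoring 50% (-8.20). Each cut kept the highest scores, which went with wider hotspots. The cuts to equal number and equal covered length also left AG replicate 1 whole, so the larger differences are no separate support. On the other autosomes the same share was 8.96 and 6.68% in AG and 11.03 and 10.6% in GG. Chromosome 14 thus exceeded them by 1.18 and 1.64 percentage points in GG, and by -0.712 and 0.182 in AG (two-sided exact permutation p = 0.333).

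Hotspots also lay closer together in GG. The median distance to the next hotspot on chromosome 14 was 16.5 and 15.5 kb in AG and 12.1 and 13.3 kb in GG, a difference of 3.32 kb (two-sided exact permutation p = 0.333) that was 1.83 kb with lists of equal number. Neighbours under 5 kb apart made up 23.9 and 24.9% of distances in AG and 32.1 and 31.4% in GG. These shares were close to those of the other autosomes, at 24.9 and 25.5% in AG and 31.2 and 29.8% in GG.

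The sharing of chromosome 14 regions between libraries was then examined. Most merged regions were called in a single library: 7557 of 10288 (73.5%) in 1 library, 1498 (14.6%) in 2, 573 (5.57%) in 3 and 660 (6.42%) in all 4. Over the whole genome 5.9% of regions were in all 4 libraries. Shared regions were wider. The median width rose from 753 bp for regions in 1 library to 1291 bp in 2, 1916 bp in 3 and 2930 bp in all 4, and a merged region can only grow as more lists add to it. The 660 regions in all 4 libraries held 18.97% of all bp within regions of the chromosome.

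AG replicate 1 alone called 1636 regions (15.9% of the chromosome's regions), against 13.3% over the genome. Single-library regions of AG replicate 2, GG replicate 1 and GG replicate 2 made up 22.1, 18.5 and 16.9%, against 22.6, 21.01 and 18.0% over the genome. Only AG replicate 1 thus had a larger share of regions of its own on chromosome 14 than genome-wide.

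Regions in both AG and neither GG library (AG-only) numbered 260, or 2.53% of chromosome 14 regions, against 2.12% of regions over the whole genome. Regions in both GG and neither AG library (GG-only) numbered 584, or 5.68% against 5.48%. Both shares lay near the genome's. Each of the 4 mixed pairs, 1 AG with 1 GG library, had 135 to 185 regions to itself, fewer than either group. Per pair this was 1.31 to 1.80% of the chromosome's regions, against 1.29 to 1.82% over the genome. There, too, the mixed pairs had fewer than either group. A region also called in another library is not counted for a pair. There were 2.25 GG-only regions for each AG-only region, against 2.58 over the whole genome. On chromosome 14 the ratio was 1.67 with lists of equal number and 1.12 with lists of equal covered length. In the latter, 255 AG-only and 285 GG-only regions remained beside 76 to 135 in the mixed pairs. In the higher-scoring 50% of each list there were 134 AG-only and 339 GG-only regions. These cuts were not counted over the genome. Without 1 library of a group a region needs only the other to count, so AG-only regions rose in number to 2560 when AG replicate 1 was left out and to 1922 when AG replicate 2 was. GG-only regions likewise came to 2423 when GG replicate 1 was left out and to 2552 when GG replicate 2 was.

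**Figure D2:**
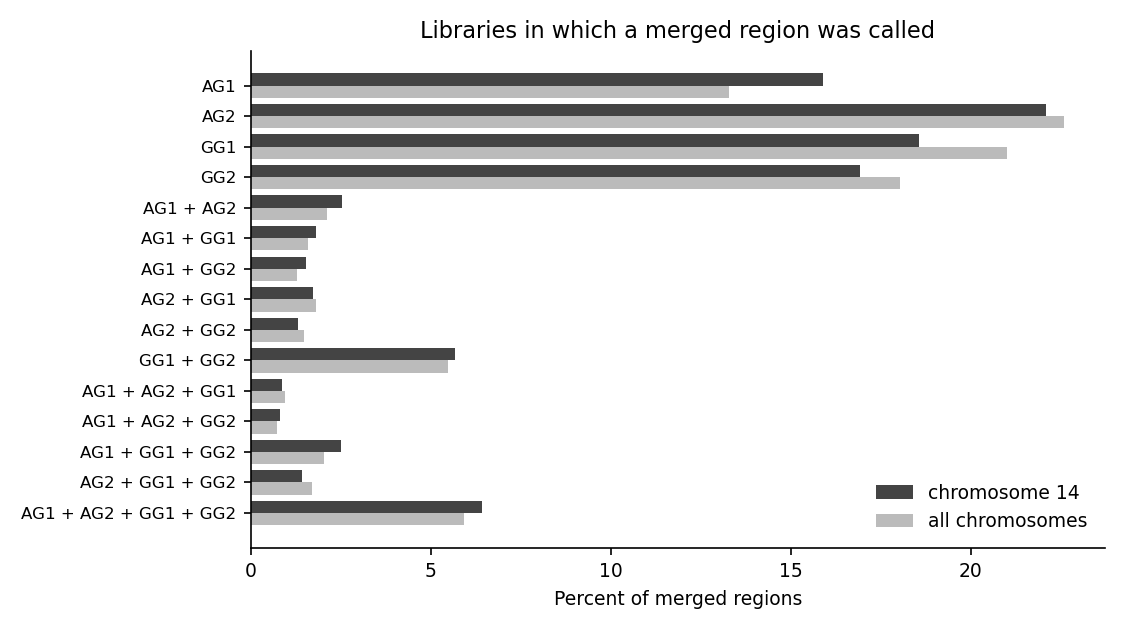
Percent of merged regions called in each combination of libraries (AG1 and AG2, GG1 and GG2 are the replicates), for chromosome 14 (dark bars) and all chromosomes (grey bars). Among pairs, GG1 with GG2 stands out with 5.68% on chromosome 14, and single libraries account for most regions.

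By position, the pair of GG libraries was the most alike on chromosome 14, with a Jaccard index, the bp covered in both lists over the bp covered in either, of 0.272. The AG pair had 0.171, inside the range of 0.153 to 0.183 of the mixed pairs. On the other autosomes the GG pair had 0.246 and the AG pair 0.168. The mean index within groups exceeded that between groups by 0.0533, by 0.118 and 0.0892 without AG replicates 1 and 2, and by 0.00250 and 0.00327 without GG replicates 1 and 2. The excess thus rested on the GG pair.

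How often a hotspot was found again followed its score, which ranks hotspots within a list and is the authors' own value. In AG replicate 1, 12.9% of the chromosome 14 hotspots among the lowest-scoring 25% of the list and 65.8% of those among the highest-scoring 25% overlapped a hotspot of AG replicate 2. For AG replicate 2 in AG replicate 1 the shares were 12.5 and 60.0%. For GG replicate 1 in GG replicate 2 they were 17.0 and 79.9%, and in the reverse direction 19.8 and 80.7%. The highest-scoring 25% were also the widest, with medians between 1219 and 1596.5 bp, while the lowest-scoring 25% had medians between 646 and 688 bp.

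Position and width were compared within shared regions. Of the 660 regions in all 4 libraries, 431 had exactly 1 hotspot in each library. In these the midpoints of the hotspots differed by a median of 234 bp between the AG libraries, 252 bp between the GG libraries and 241 to 266 bp in the mixed pairs, so positions differed about as much within as between the groups. Median widths were 1287 and 1246 bp in AG and 1691 and 1762 bp in GG, larger in both GG libraries. Both GG hotspots were wider than both AG hotspots in 155 of the 431 (36.0%), and both AG hotspots were wider in 46 (10.7%). On the other autosomes these shares were 32.1 and 12.7%.

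The region of all 4 libraries with the highest score in its weakest library lay at 12807440 to 12809990, with scores of 33.7 and 50.5 in AG replicates 1 and 2 and 52.7 and 53.5 in GG replicates 1 and 2. Next were 18828703 to 18829762 (scores 32.8, 86.9, 64.7 and 49.6 in the same order) and 10617550 to 10618381 (17.6, 38.6, 28.2 and 31.2). Those at 8132280 to 8134985 and 67450972 to 67463702 followed, with lowest scores of 16.6 and 15.5. Of these 5 regions, 4 lay in the dense first 20 Mb.

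The highest score of the chromosome belonged to a region that 1 library lacked. At 42803328 to 42804643, scores were 388 in AG replicate 2, 258 in GG replicate 1 and 232 in GG replicate 2, each the highest on chromosome 14 and the 23rd, 30th and 31st highest of its whole list. The runners-up on the chromosome reached 143, 64.7 and 53.5. AG replicate 1 had no hotspot there, and its nearest was 16.8 kb away with a score of 5.51. The 1 Mb window around it was sparse, with 8.53 and 11.99 kb of hotspots in AG and 7.25 and 9.07 kb in GG, and its width of 1040 to 1082 bp per library was ordinary.

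The widest region stood out for a different reason. It ran from 108425010 to 108439937, 14928 bp, and was called in all 4 libraries, but hotspots covered only 1670 and 970 bp of it in AG replicates 1 and 2, against 12846 and 13845 bp in GG replicates 1 and 2. In GG replicate 2 a single hotspot of 13845 bp filled most of it, the widest of all 84865 hotspots of that list. In GG replicate 1 the main hotspot was 9465 bp wide, the 5th widest of 93171. The highest scores in it were 5.50 and 5.56 in AG and 15.8 and 14.5 in GG. Among the chromosome 14 hotspots of their own lists, these ranked 1679 of 3445 and 1500 of 3918 in AG. In GG they ranked 98 of 4150 and 145 of 3921. The AG calls did not overlap each other.

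The next widest regions of all 4 libraries were 67450972 to 67463702 (9262 and 8404 bp covered in AG, 12044 and 10171 bp in GG) and 8995302 to 9005543 (4278 and 6088 bp, 6274 and 9524 bp). They were followed by 64073795 to 64083828 (2055 and 2085 bp, 9380 and 5562 bp) and 95000250 to 95009639 (2220 and 1079 bp, 7439 and 6427 bp). Since merged width was what ranked them, and wide GG hotspots add to it, their higher GG coverage is no separate result.

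Among AG-only regions, the highest score in the weaker library belonged to 75662128 to 75664064, with scores of 19.1 and 16.1 and a covered length of 1937 and 1712 bp in AG replicates 1 and 2. It was followed by 47728070 to 47731583 (scores 10.8 and 9.85) and 75399075 to 75404038 (10.2 and 9.75). Then came 90710372 to 90711580 (10.7 and 9.42) and 56494743 to 56495649 (9.37 and 25.2). In the last, AG replicate 2 covered only 76 of 907 bp.

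Among GG-only regions, 12646403 to 12649181 ranked first, with scores of 14.97 and 20.9 and covered lengths of 2232 and 1684 bp in GG replicates 1 and 2. Next were 101053830 to 101054733 (scores 16.9 and 14.2) and 61450422 to 61455620 (12.96 and 15.3), the latter of which covered 4328 and 5199 bp. The others were 66489133 to 66489927 (12.01 and 11.9) and 61473027 to 61473574 (12.9 and 11.4), so 2 of the 5 lay in the same 1 Mb window. Since these regions were chosen by score, their scores lie above the usual level by selection. The lower of a region's scores had a median of 4.99 over the 260 AG-only regions and 5.11 over the 584 GG-only regions.

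**Figure D3:**
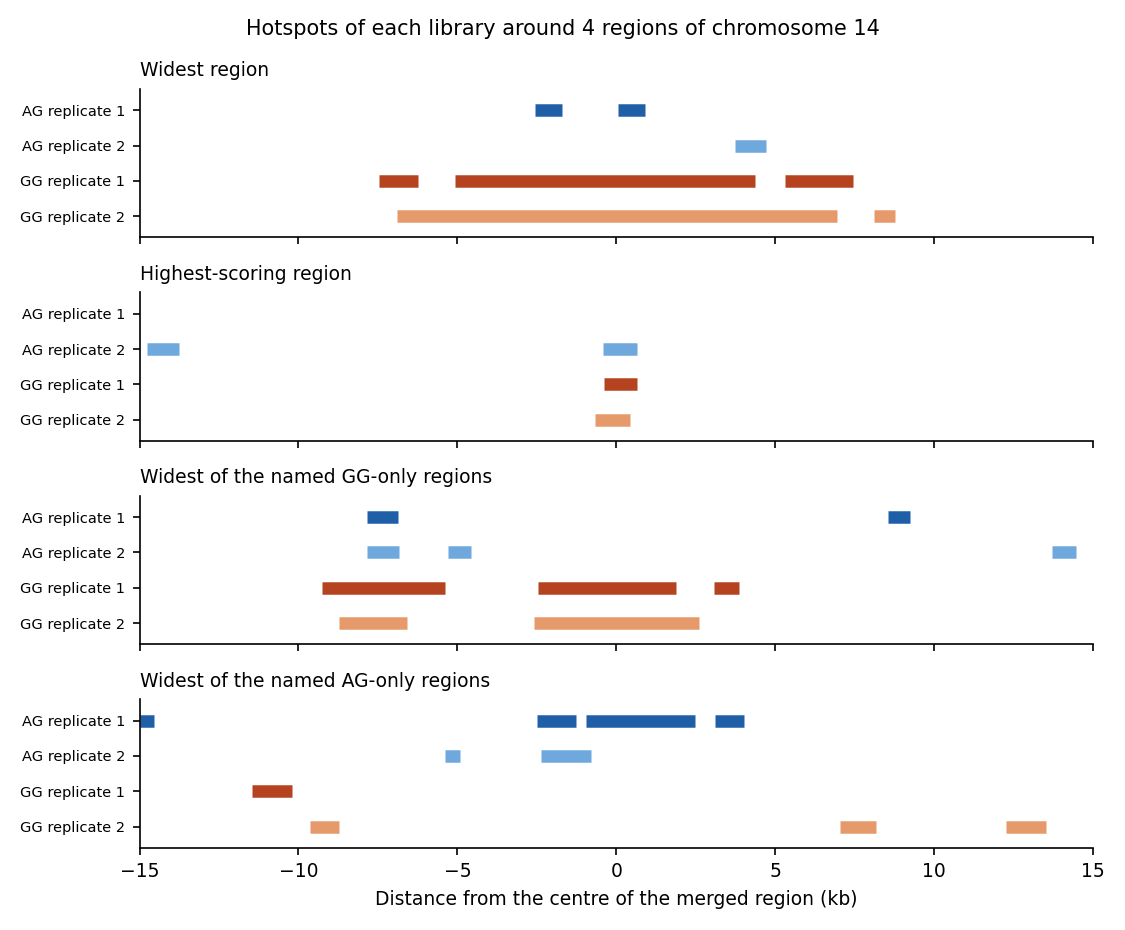
Hotspots of each library (bars) within 15 kb of the centre of 4 regions of chromosome 14. The widest region is nearly filled in both GG libraries and holds 2 and 1 hotspots of ordinary width in the AG libraries. The highest-scoring region is missing in AG replicate 1. The GG-only and AG-only regions are called in 1 group and have hotspots of the other group nearby.

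Regions of both libraries of a group lay nearer to the regions that all libraries share than did regions of a single library. The median distance from an AG-only region to the nearest region of all 4 libraries was 45.9 kb, and from a GG-only region 49.4 kb. For regions called in a single library it was 73.0 to 89.5 kb. The distance was not computed for regions of the mixed pairs, so whether it is particular to a group was not tested. AG-only regions lay within 10 kb of one in 15.8% of cases and GG-only regions in 18.2%. By section, the ratio of GG-only to AG-only regions was highest in the section from 110000001 (79 against 19) and that from 20000001 (29 against 7), and lowest in that from 90000001 (22 against 16).

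Finally, windows of 1 Mb were compared between AG and GG after scaling each library to its own mean over windows, with limma fitted over all 2682 windows of the genome. By limma, 0 of the 128 chromosome 14 windows passed a Benjamini-Hochberg adjusted p of 0.05, as did 0 of all windows (0%). An unadjusted p under 0.05 was found for 19 (14.8%), 14 higher in AG and 5 higher in GG. Over all windows 18% fell under it, 6.67% higher in AG and 11.3% higher in GG. The 19 became 12 without GG replicate 1, where 8.76% of all windows fell under 0.05, and 10 without GG replicate 2 (9.40%). With a variance trend, limma called 5 of the 128 chromosome 14 windows, when it called 8.13% of all windows of the genome. With an offset of 10000 bp it called 5 of the 128, when it called 5.07% of all windows. In each case 2 were higher in AG and 3 in GG.

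More windows leaned to AG than to GG on chromosome 14. Scaled coverage differed over 2-fold in 8 windows higher in AG (6.25% of the chromosome's windows, against 2.65% over the genome). It did so in 5 windows higher in GG (3.91%, against 8.72% over the genome). Both AG libraries lay above both GG libraries in 40 of 128 windows (31.3%), against 24.1% over the genome, and below them in 22 (17.2%), against 28.9%. The median difference was log2 0.06 on chromosome 14 and -0.04 over all windows. This balance depended on the scaling. Centring each library within chromosomes removes a lean of the chromosome as a whole by construction. The balance was then 34 against 29 windows, when 28.3 and 22.5% of all windows were higher in AG and GG. In the better-scoring 50% of each list it was 29 against 26 of 123 windows (22.9 and 27.7% of all). Scaling to the median of windows, which shifts all windows to a median of log2 0.08, gave 50 against 14 (31.1 and 21.7% of all), and the number of hotspots 44 against 12 (23.1 and 25.5% of all). Without AG replicate 1, the library with the largest share on this chromosome, it was 53 against 46 (38.8 and 39.3% of all), so most of the lean was lost. With the replicate number as a block, the windows with an unadjusted limma p under 0.05 were 11 higher in AG and 8 higher in GG. Together they were 14.8% of chromosome 14 windows, against 17.2% of all windows.

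**Figure D4:**
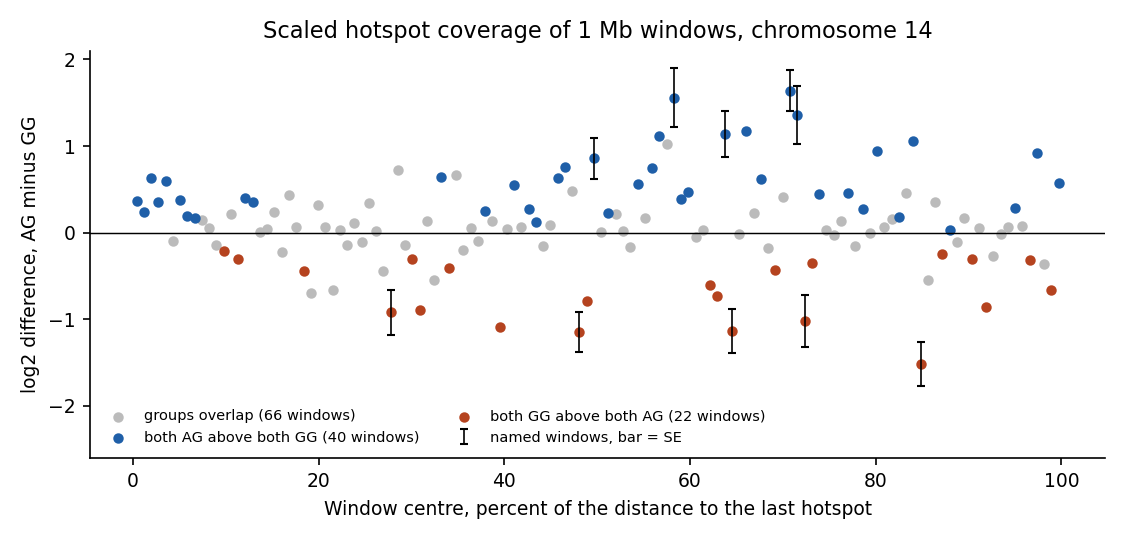
Log2 difference in scaled hotspot coverage (AG minus GG) of 128 windows of 1 Mb against their position, as percent of the distance to the last hotspot. Blue points (40) have both AG above both GG libraries, red points (22) the reverse, and bars mark the SE of the 10 named windows, which reach log2 1.64 and -1.52.

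The window with the smallest p that was higher in AG ran from 90000001 to 91000000. Hotspots covered 19.4 and 27.7 kb of it in AG replicates 1 and 2 and 10.1 and 7.92 kb in GG replicates 1 and 2. On the scaled log2 scale the difference was 1.64 (SE 0.23), 3.11-fold, with a limma adjusted p of 0.132. The largest part of the excess lay from 90600001 to 90800000, where AG had 11.6 and 7.72 kb and GG 3.71 and 1.82 kb. The AG-only region at 90710372 lies there.

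The neighbouring window from 91000001 was also higher in AG, with 5.69 and 10.8 kb against 2.71 and 4.28 kb (log2 1.36, SE 0.33). The next one, from 92000001, was higher in GG, with 4.43 and 3.44 kb in AG and 11.1 and 12.5 kb in GG (log2 -1.02, SE 0.30). The direction thus turned between adjacent windows in a sparse part of the chromosome. limma adjusted p-values were 0.164 and 0.192.

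The other windows named as higher in AG were 74000001 to 75000000, 81000001 to 82000000 and 63000001 to 64000000. The first had 15.97 and 14.5 kb in AG and 8.52 and 4.22 kb in GG (log2 1.56, SE 0.34). The second had 8.18 and 7.27 kb against 4.53 and 3.62 kb (log2 1.14, SE 0.26), and the third 49.9 and 56.6 kb against 35.8 and 38.8 kb (log2 0.86, SE 0.24). Only the last of these 5 windows was well covered, and it held 9 regions of all 4 libraries.

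The window with the smallest p among those higher in GG ran from 108000001 to 109000000, with 12.2 and 11.9 kb in AG and 53.0 and 41.2 kb in GG. Its scaled difference was log2 -1.52 (SE 0.25), 2.87-fold, with a limma adjusted p of 0.132. The part from 108400001 to 108600000, which contains the widest region of the chromosome, had 4.72 and 5.13 kb in AG and 27.4 and 25.3 kb in GG. The part from 108200001 to 108400000 had 4.49 and 1.45 kb against 13.6 and 7.73 kb. The window held 9 GG-only regions and 1 AG-only region, counted from the same hotspots that gave its coverage.

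Window 61000001 to 62000000 followed, with 8.82 and 12.4 kb in AG and 34.8 and 28.7 kb in GG (log2 -1.15, SE 0.23). Most of its GG coverage, 23.1 and 19.5 kb, lay from 61400001 to 61600000, around the pair of strong GG-only regions, where AG had 8.003 and 5.48 kb. Window 82000001 to 83000000 had 11.99 and 11.3 kb in AG and 38.0 and 31.4 kb in GG (log2 -1.14, SE 0.25), and 35000001 to 36000000 had 6.85 and 7.83 kb against 17.1 and 21.5 kb (log2 -0.92, SE 0.26). By limma, the windows from 61000001 and 82000001 had an adjusted p of 0.149 and that from 35000001 one of 0.182. In all 10 named windows the libraries of the groups did not overlap, a property that windows with a small p tend to have. Group-only regions inside named windows come from the same hotspots as the coverage, so they are no separate support.

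**Figure D5:**
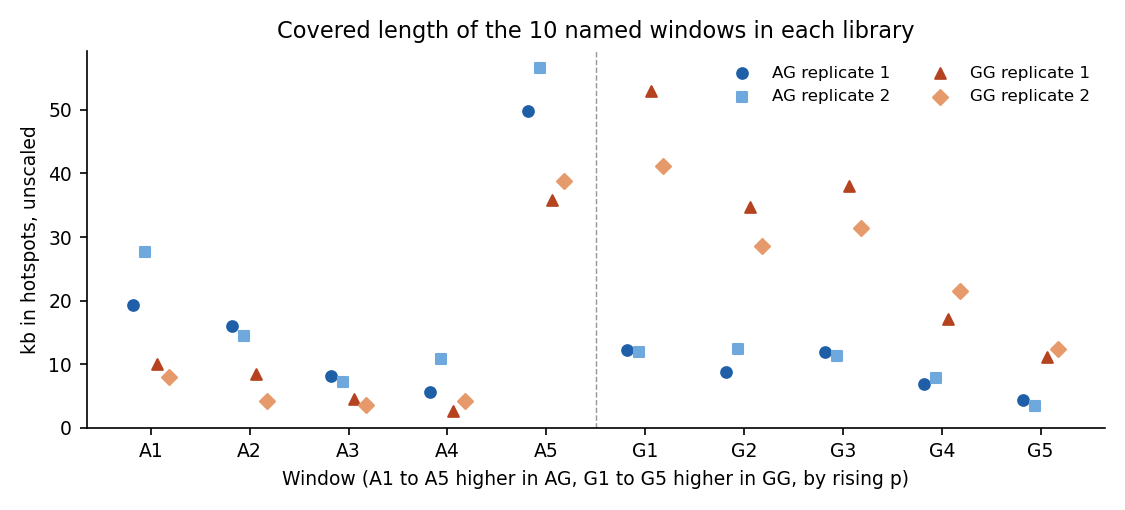
Covered length (kb, unscaled) of the 10 named windows in each library, ordered within each direction by rising p. A1 to A5 begin at 90000001, 74000001, 81000001, 91000001 and 63000001, and G1 to G5 at 108000001, 61000001, 82000001, 35000001 and 92000001; AG points lie above GG points in A1 to A5 and below in G1 to G5.

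Windows higher in one kind of embryo formed few long runs. The longest was the first 5 Mb, where all 5 windows had both AG libraries above both GG libraries after scaling. Unscaled, hotspots covered 37.0 and 49.8 kb per Mb there in AG and 41.4 and 40.4 kb per Mb in GG, so only AG replicate 2 was higher before the length of the lists was taken into account. The next runs, 3 windows each, were also higher in AG after scaling and ran from 6000001 to 9000000 and from 74000001 to 77000000. Unscaled, the run from 6000001 had 76.0 and 85.5 kb per Mb in AG and 91.1 and 86.0 in GG, so both GG libraries were higher there. That from 74000001 had 25.4 and 22.6 kb per Mb in AG and 20.2 and 20.1 in GG. The longest runs higher in GG were 2 windows, from 38000001, 61000001, 79000001 and 92000001.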

How the data were processed

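DNase-seq hotspot lists of 4 libraries (AG and GG morulae, 2 each) were used, with groups and replicates from the sample titles. The authors deposited 1 list per library with chromosome, start, end and a score; how the score was computed, and by which hotspot caller, is not given in the sources used here, and a false discovery rate of 0.01 stands in the list names. The genome build rheMac8 and, as tools of unstated role, deepTools 3.3.1, Bowtie2, Trim Galore and SAMtools are named per the submitters' processing notes. Depth is unknown.

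Hotspots of all lists were merged where they overlapped or touched, and counted for a library that covered 1 bp or more of them. Group means were compared by exact permutation. Windows (1 Mb, mean covered length 2000 bp or more) were compared as log2 of covered bp plus 1000 bp, over the library's mean of this, with limma (lmFit, eBayes) over all chromosomes and Benjamini-Hochberg adjustment, a fit tested on simulated data. The offset understates differences of sparse windows. No gene annotation of rheMac8 was used here.

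Named were, per direction, the 5 windows with the smallest p and 5 regions of that group alone, ranked by the lower of their 2 scores; the 5 highest-scoring and 5 widest regions of all 4 libraries; the 3 most and least covered windows; and the 3 longest gaps. The highest-scoring region overall was named after its values were seen. The chromosome, lists and rules were chosen with earlier results of these data known. Fits ran in R 4.3.3 with limma 3.58.1, and the rest in Python 3.11.15 with pandas 2.3.3, numpy 2.4.6, scipy 1.17.1 and, for figures, matplotlib 3.10.9.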

Additional observations from a re-analysis of the deposited data

How the results depend on the processing

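Alternatives changed 1 choice at a time; those on wide hotspots and distances were chosen after seeing the data. In lists of equal number, hotspots on chromosome 14 turned from -354 (AG minus GG) to 198.5. AG replicate 1 was left whole there, and AG replicate 2 lay below the GG mean. The difference in share of covered bp was -0.115 to 0.629 percentage points with 1 library left out, turning only without AG replicate 1. The better-scoring 50% of every list gave 134 AG-only and 339 GG-only regions, and GG-only regions numbered 285 at equal covered length. With 1 library left out, AG-only regions numbered 345 to 2560, GG-only regions 741 to 2552, and the Jaccard excess was 0.00250 to 0.118. Windows without overlap of the groups numbered 90 to 99, from 62 (48.4%, against 53.0% of all windows). The 99, without AG replicate 1, were 41.4% higher in AG and 35.9% higher in GG, against 38.8 and 39.3% of all windows. The 90, without GG replicate 2, were 46.9 and 23.4%, against 34.8 and 38.9%. A group of 1 library has fewer conditions to meet, so these counts of regions and windows rise by construction. With 1 library left out, the Jaccard index within groups is that of the other group's pair alone, 0.171 for AG or 0.272 for GG. For the share the cause was not tested. Windows of 200 kb gave 227 of 485 without overlap, 27.0% higher in AG and 19.8% higher in GG, against 23.8 and 25.7% over the genome. limma called 5 windows with an offset of 10000 bp and 5 with a variance trend, and 0 under the other 12 alternatives. Of the 5 with a trend, 117000001 to 118000000 is not among the windows named by rule (log2 -0.86, adjusted p 0.0273).

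Nothing in the labels ties same-numbered libraries together, and with 2 numbers the data cannot settle it: their deviations correlated at -0.0842 over 2682 windows and at 0.341 over the 128 of chromosome 14. With the replicate number as a block, limma called 0 chromosome 14 windows. An unadjusted limma p under 0.05 was found for 19 (14.8%, against 17.2% of all windows). Of these, 11 were higher in AG and 8 in GG, against 14 and 5 without the block. None of the 10 named windows turned direction under the 13 alternatives run on each, but several of these outcomes were fixed in advance. The windows were picked for a small p, and their groups did not overlap, so leaving out 1 library kept the direction by construction. The variance trend and the replicate block leave the log2 difference unchanged, as in the window from 90000001 (1.64 in each). With all 4 libraries, limma adjusted p-values ranged from 0.00125 (variance trend) to 0.680 (higher-scoring 50% of each list). Without read counts, the precision of single hotspots cannot be given.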

Other observations

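Some of the highest scores on chromosome 14 came from hotspots that no other list held. Of hotspots with a score over 20, this was the case for 5 of 8 in AG replicate 1, 5 of 20 in AG replicate 2, 1 of 30 in GG replicate 1 and 0 of 32 in GG replicate 2. Of all hotspots on the chromosome, whatever their score, 47.5, 58.0, 46.0 and 44.4% were in no other list, so high scorers were alone more often than the rest only in AG replicate 1. The highest score of AG replicate 1, 34.2, was such a hotspot, 233 bp wide from 83357599 to 83357831, in a window that is among the 3 least covered of the chromosome. Its 4th highest, 27.8, was 10 bp wide, from 67859751 to 67859760. In AG replicate 2 the 2nd highest, 143, lay from 61368886 to 61369836 and was also in no other list.

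The regions that differed most in covered length were picked after their values were seen. Besides the widest region, 12266587 to 12274798 was covered over 1148 and 1559 bp in AG and 8212 and 7947 bp in GG, and 79494380 to 79501721 over 6267 and 5248 bp in GG with no hotspot in AG. In the opposite direction, 86510863 to 86514534 was covered over 3556 and 3478 bp in AG with no hotspot in GG, and 100189482 to 100197325 over 7508 and 3094 bp in AG and 1699 and 2412 bp in GG. As AG minus GG differences of group means, the extremes were thus 3517 bp and, in the widest region, -12025.5 bp.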
